A study of Mus musculus with 35 samples.

Results

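The genes described here encode 9 nonfibrillar collagen chains of the skin, which were chosen by name from 36106 genes in the table. They are Col12a1, Col14a1 and Col16a1, fibril-associated collagens with interrupted triple helices; Col6a1, Col6a2 and Col6a3, the main chains of the beaded filament collagen VI; the short-chain network collagen gene Col8a1; and Col15a1 and Col18a1, the multiplexins of basement membrane zones. The rule uses names only, with no threshold on a measured value. Fibril-associated collagens do not build the thick collagen fibrils themselves. They sit on the surface of fibrils made of collagens I, III and V, and their large noncollagenous domains reach out between fibrils and to neighbouring molecules. Collagen VI chains combine into one heterotrimer, which assembles into beaded microfibrils around cells, and loss of its chains is known to cause muscle and connective tissue disease. The multiplexins link basement membranes to the matrix beneath, and the end of collagen XVIII is the source of endostatin, a fragment known for acting on blood vessels.

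The data are bulk RNA-seq of 35 pieces of skin from 19 mice. All mice were female, 10 weeks old and of C57BL/6J, an inbred strain. Sham skin came from 3 mice that had no radiation. In the other mice the left flank received 25 Gy at 3.6 Gy per min over 420 s, and the treated skin was then shaved. Radiated and control skin was collected 1, 2, 3 and 4 weeks later, with n = 4 for each kind in each week. No allele or other agent is named, the site on the body from which control skin was taken is not given in the sources used here, and skin of different weeks comes from different mice. Because there were fewer mice than samples, radiated and control skin that carry the same number within a week were taken to come from 1 mouse. The adjusted p values given are from unpaired fits unless a replicate block is named, and counts of pairs only describe the direction within mice.

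Libraries held between 17362853 and 28487885 counts in total, and all 9 genes passed the filter on low counts in every comparison. Levels are given as CPM, a gene's counts per 1000000 counts of its library after TMM scaling. A gene was counted as changed where its adjusted p was under 0.05 in edgeR, with the adjustment over all genes tested. Markers of the dermis were present: the summed level of 8 fibroblast markers ran from 367 to 602 CPM in sham skin, and none of the 8 was at 0 in any sample. A bulk value cannot tell more or fewer cells of a type from more or less RNA per cell. Other tissue varied between samples as well. The summed level of 8 skeletal muscle markers ran from 1214 CPM in a radiated sample of week 4 to 54006 CPM in a control sample of week 2, and that of 6 markers of growing hair follicles from 8.22 CPM in a control sample of week 2 to 33093 CPM in a sham sample.

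What makes these chains collagens is visible in their coding sequence, where glycine codons (GGN) open each triplet of a Gly-X-Y repeat. The start of the longest uninterrupted stretch of such triplets is shown for 5 of the genes whose counts are set against each other as ratios further on, a fibril-associated pair and the chains of collagen VI. Capitals mark the glycine codon that opens each triplet; other glycine codons stay in lower case. Each stretch is 90 coding bases, 5′ to 3′, joined across introns, from the GENCODE M21 annotation on GRCm38, and codons are counted from 1 at the start codon.
Col12a1 (codons 2805 to 2834, exons 56 to 58, chr9:79612423-79613769, minus strand): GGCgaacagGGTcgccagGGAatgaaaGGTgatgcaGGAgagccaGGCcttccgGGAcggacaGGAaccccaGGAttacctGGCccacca
Col14a1 (codons 1517 to 1546, exons 38 to 40, chr15:55471708-55473306, plus strand): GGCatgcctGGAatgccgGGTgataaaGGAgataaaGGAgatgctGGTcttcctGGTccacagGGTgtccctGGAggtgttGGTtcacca
Col6a1 (codons 256 to 285, exons 8 to 9, chr10:76719623-76720996, minus strand): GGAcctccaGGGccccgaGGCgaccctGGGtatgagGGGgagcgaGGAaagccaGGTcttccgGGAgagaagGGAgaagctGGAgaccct
Col6a2 (codons 271 to 300, exons 5 to 6, chr10:76611948-76613290, minus strand): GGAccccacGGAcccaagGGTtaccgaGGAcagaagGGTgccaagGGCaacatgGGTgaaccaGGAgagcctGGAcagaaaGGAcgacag
Col6a3 (codons 2165 to 2194, exons 22 to 23, chr1:90791924-90792445, minus strand): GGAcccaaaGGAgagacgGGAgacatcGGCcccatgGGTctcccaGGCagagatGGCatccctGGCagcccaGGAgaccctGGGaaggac

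The triplet stretches differed in length within the classes as well as between them. In Col12a1 and Col14a1 the longest stretch held 32 triplets, and both genes had 84 triplets in 5 stretches of at least 5. These made up 8.19% of the 3065 codons of Col12a1 and 14.0% of the 1798 codons of Col14a1, so most of either chain is noncollagenous. Col6a1 and Col6a2 both had a longest stretch of 87 triplets and 110 triplets in all. Col6a3 had 111 triplets, but its longest stretch held 45, and its 3284 codons were over 3 times the 1025 of Col6a1. Col16a1, with 333 triplets in 21 stretches and a longest one of 52, and Col8a1, with 154 in 9, had 62.8% and 61.0% of their codons in triplets. Col15a1 and Col18a1 shared a longest stretch of 30 triplets. For comparison, Col1a1, the chain of the main fibrillar collagen, had a stretch of 338 triplets and 73.3% of its codons in such stretches.

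Radiated skin was compared with control skin of the same week to find when these genes changed after radiation. None of the 9 passed the test in week 1 or week 2, Col12a1, Col8a1 and Col18a1 were higher in week 3, and all 9 were higher in week 4. In week 1 edgeR called 0 of 17578 genes (0%), while 2477 genes and 2 of the 9 had an unadjusted p under 0.05, and DESeq2 called 1 of the 9, Col18a1, beside 2.73% of its genes. Without radiated replicate 1, edgeR also called Col18a1, beside 1.3% of genes. In week 2 the full fit called 1 of 17345 genes (0.00577%) and none of the 9, with 2388 genes and 1 of the 9 under the unadjusted threshold, and DESeq2 called 0 of the 9 and 4.44% of its genes. In week 3, 3 of the 9 were called higher against 13.6% of 17653 genes, and 0 were called lower against 13.6%. In week 4 it was 9 of 9 higher against 24.2% of 17850 genes, and 0 lower against 24.2%. The median log2 fold change of the 9 genes was 0.12, 0.37, 1.09 and 2.29 in weeks 1 to 4, and over all genes tested it was 0.05, -0.003, 0.08 and 0.02. The week 4 count was 9 under every alternative run. The week 3 count was 5 with the replicate number as a block, beside 10% of genes higher, and 5 without radiated replicate 1, beside 10.9%, and both fits added Col6a1 and Col6a2. DESeq2 called 6 of the 9, beside 17.1% of its genes higher, and 1 fit of all groups called 6, beside 16.5%. It was 7 with total-count scaling, which added Col6a3 and Col15a1 as well, beside 23% of genes higher and 7.19% lower. Total-count scaling shifted the median of all genes tested by 0.235 in week 3 and 0.136 in week 1.

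**Figure D1:**
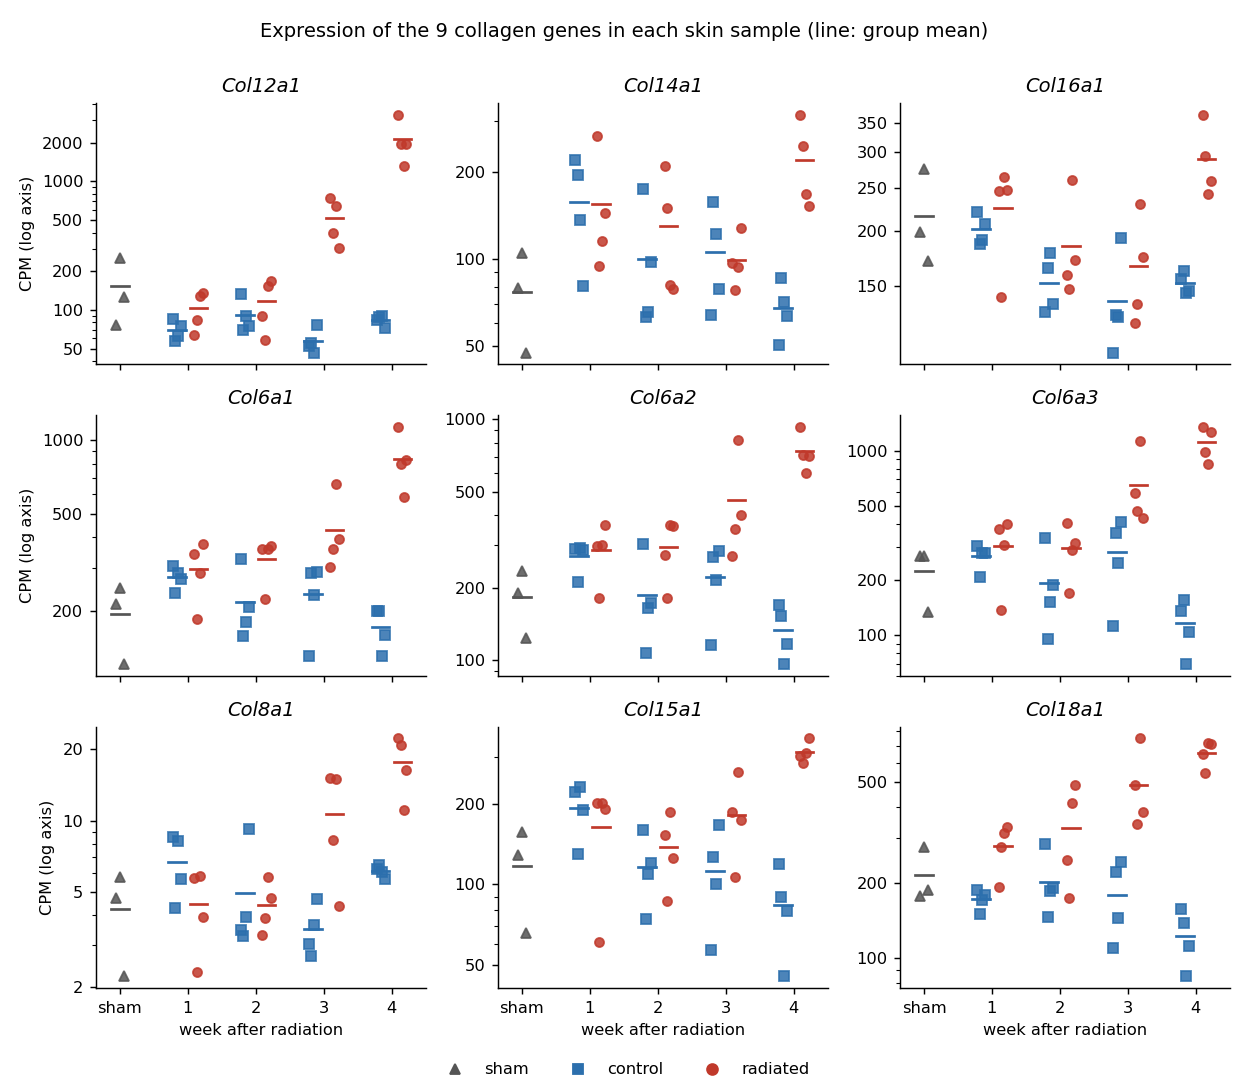
CPM of each of the 9 collagen genes (vertical log axis, a scale of its own in each panel) in every sample, by week after radiation, with sham skin at the left; points are samples and lines are group means. In week 4 all 4 radiated samples lie above all 4 control samples in every panel, and in weeks 1 and 2 the groups overlap in all panels except Col18a1 in week 1. How many of all genes separate in this way was not counted.

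Among the fibril-associated collagens Col12a1 (ENSMUSG00000032332, chr9:79598991-79718831, minus strand, GRCm38) had the largest log2 fold change of the 9 genes in weeks 3 and 4. Collagen XII is known to be made by dermal fibroblasts and to lie on fibrils of skin, tendon and fascia. In control skin of week 4, Col12a1 stood at 83.1, 87.4, 90.0 and 72.2 CPM in the 4 samples, and in radiated skin at 3303, 1968, 1315 and 1941 CPM. All radiated samples were over 10 times as high as any control sample of that week, and the means were 2132 ± 837 CPM (SD, n = 4) and 83.2 ± 7.85 CPM (SD, n = 4). This was a 25.8-fold difference, with a log2 fold change of 4.69 in edgeR (adjusted p 3.15e-06, SE 0.28). In week 3 the samples stood at 737, 399, 649 and 302 CPM in radiated and 52.0, 55.6, 46.7 and 77.0 CPM in control skin, again without overlap. The difference in week 3 was 9.23-fold, with a log2 fold change of 3.21 in edgeR (adjusted p 7.30e-04, SE 0.31). In weeks 1 and 2 the radiated samples ran from 64.1 to 136 CPM and from 58.7 to 167 CPM, overlapping with controls at 57.1 to 84.4 CPM and 70.1 to 133 CPM. Sham skin had 77.0, 255 and 126 CPM, and 1 of these samples was above all 16 control samples.

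Col14a1 (ENSMUSG00000022371, chr15:55307750-55520803, plus strand), the gene of the close relative collagen XIV, which regulates the growth of fibrils, did not follow Col12a1 in week 3. Radiated samples of week 3 had 96.9, 78.0, 93.4 and 128 CPM and control samples 63.6, 158, 121 and 78.7 CPM, so the groups overlapped fully and the log2 fold change was -0.06 (adjusted p 0.885) in edgeR. In week 4 it rose: radiated samples had 316, 246, 168 and 153 CPM and controls 50.3, 85.5, 71.0 and 63.4 CPM. All radiated samples were above all controls, by 3.29-fold in the fit, with a log2 fold change of 1.72 in edgeR (adjusted p 3.31e-04, SE 0.25). Levels in weeks 1 and 2 were uneven within both groups, from 94.6 to 268 CPM in radiated and 80.8 to 219.5 CPM in control skin of week 1.

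Col16a1 (ENSMUSG00000040690, chr4:130047840-130099283, plus strand), whose product is found at the dermal-epidermal junction and in small fibrils of the upper dermis, had the smallest log2 fold change of the 9 genes in week 4. Radiated samples had 365, 295, 242 and 258 CPM and control samples 156, 163, 145 and 146 CPM. The controls lay within a narrow band and all radiated samples were above it. The difference was 1.91-fold, with a log2 fold change of 0.94 in edgeR (adjusted p 2.47e-04, SE 0.13). In weeks 1 to 3 its log2 fold change lay between 0.17 and 0.29, with overlapping groups.

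The 2 genes with the same triplet layout were set against each other directly, as the ratio of Col12a1 counts to Col14a1 counts within each sample, with 0.5 added to both. In control skin the ratio was 0.818, 0.352, 0.384 and 0.979 in week 3 and 1.65, 1.02, 1.27 and 1.14 in week 4. In radiated skin it was 7.60, 5.11, 6.94 and 2.36 in week 3 and 10.5, 7.98, 7.84 and 12.7 in week 4, higher in 4 of 4 pairs of both weeks and without overlap. The log2 ratio differed by 3.13 in week 3 and 2.93 in week 4. A two-sided exact permutation test of 4 against 4 samples gave p = 0.0286 for each, the smallest p it allows. Over the 16 ratio and week combinations tested, the Benjamini-Hochberg adjusted value from the exact permutation test was 0.0914 for these and for every other combination at the smallest p, so no ratio passed the threshold. With this adjustment a ratio at the smallest p can pass only where most of the 16 combinations are at it too. In weeks 1 and 2 the groups overlapped, with log2 differences of 0.55 and -0.10.

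**Figure D2:**
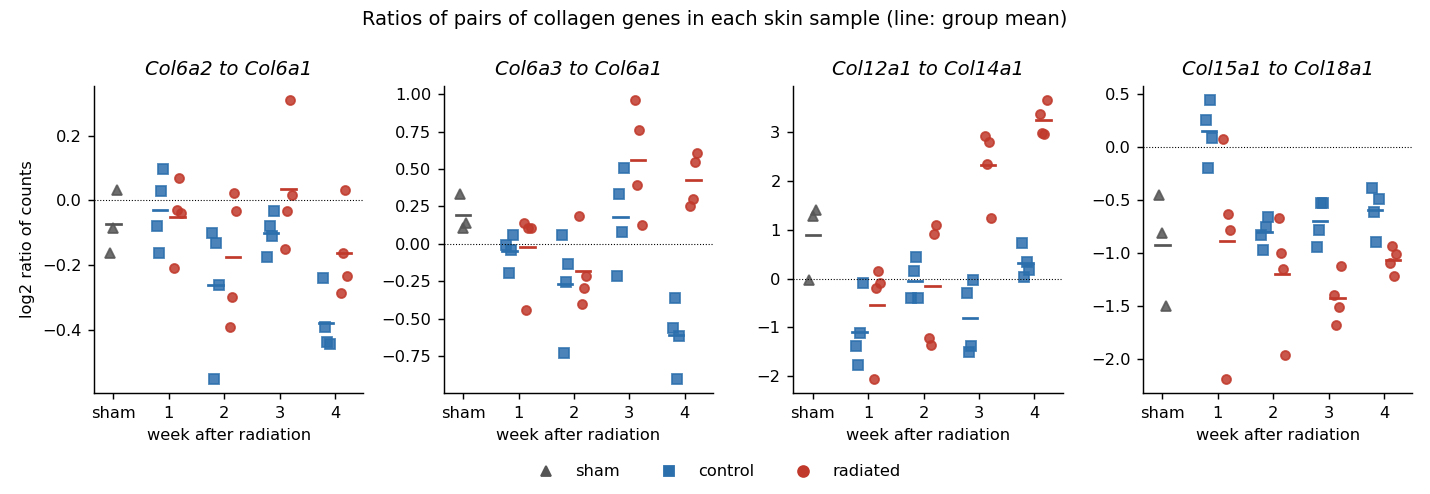
Log2 ratio of the counts of 4 pairs of genes (vertical axis, a scale of its own in each panel) in every sample, by week after radiation; points are samples, lines are group means and the dotted line marks equal counts. The ratio of Col12a1 to Col14a1 is above that of every control sample in all radiated samples of weeks 3 and 4. The ratio of Col6a3 to Col6a1 in all radiated samples of week 4 is above that of the control samples of week 4, but not of all control samples of week 3.

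The collagen VI genes all rose in week 4, Col6a3 by the most. Col6a1 (ENSMUSG00000001119, chr10:76708792-76726168, minus strand) and Col6a2 (ENSMUSG00000020241, chr10:76595762-76623630, minus strand) are neighbours on chromosome 10 and encode the shorter chains, and Col6a3 (ENSMUSG00000048126, chr1:90765923-90843971, minus strand) encodes the long chain with many von Willebrand factor type A domains, whose cut-off end is known as endotrophin. In week 4 Col6a1 stood at 1137, 797, 584 and 829 CPM in radiated and 199.7, 199.8, 130.3 and 159 CPM in control samples. Col6a2 stood at 934, 712, 597 and 706 CPM and 169, 153, 96.2 and 117 CPM, and neither gene's groups overlapped. Their differences were 4.89-fold and 5.55-fold. Col6a1 had a log2 fold change of 2.29 in edgeR (adjusted p 2.70e-05, SE 0.22), and Col6a2 had a log2 fold change of 2.47 in edgeR (adjusted p 1.24e-05, SE 0.20).

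Col6a3 stood further apart, with 1353, 979.8, 852 and 1264 CPM in radiated and 135, 156, 69.6 and 104 CPM in control samples of week 4. The lowest radiated sample was over 5 times as high as the highest control sample. The difference was 9.66-fold, with a log2 fold change of 3.27 in edgeR (adjusted p 1.12e-05, SE 0.26). In week 3 all collagen VI genes were higher in 4 of 4 pairs, with log2 fold changes of 0.90 (adjusted p 0.0536) for Col6a1, 1.09 (adjusted p 0.0580) for Col6a2 and 1.24 (adjusted p 0.0555) for Col6a3 in edgeR, which missed the threshold. In the week 3 fit with a replicate block, the adjusted p was 0.0406 for Col6a1, 0.0439 for Col6a2 and 0.0885 for Col6a3 in edgeR. Replicate 3 of radiated skin was the highest of week 3 for each, at 662, 820.5 and 1123 CPM. In week 2, Col6a1 and Col6a3 were higher in 4 of 4 pairs with overlapping groups, and Col6a3 passed with the block only, in a fit that called 3.7% of genes, with a log2 fold change of 0.70 (adjusted p 0.0391 in edgeR) against 0.62 (adjusted p 0.498) without it.

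Since the 3 chains form one molecule, their ratios within samples were followed as well. The ratio of Col6a2 to Col6a1 counts stayed between 0.683 and 1.24 over all 35 samples. Its log2 value differed between radiated and control skin by at most 0.22, in week 4 (two-sided exact permutation p = 0.0571, adjusted 0.131). The ratio of Col6a3 to Col6a1 was 0.676, 0.779, 0.534 and 0.651 in control samples of week 4 and 1.19, 1.23, 1.46 and 1.53 in radiated samples, without overlap. The log2 difference was 1.04, at the smallest p the exact permutation test allows (0.0286, adjusted 0.0914). Sham samples had a Col6a3 to Col6a1 ratio of 1.26, 1.08 and 1.10, above all 4 control samples of week 4 and, in 2 of the 3, below the radiated ones. Among the 9 groups the mean log2 ratio was lowest in control skin of week 4, at -0.61 ± 0.22 (SD, n = 4).

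The promoters of the collagen VI genes are shown because their chains form one molecule. The 250 bases before the start site are from RefSeq on GRCm38.p6, 5′ to 3′ on the gene's strand. Of the 9 genes, 7 had a promoter in the table, with 9 windows in all, and for Col6a2 the window of the more upstream start is shown. Capitals mark matches, on either strand, to the AP-1 motif TGANTCA, the TEAD motif GGAATG, the SMAD motif CAGAC, the CCAAT box, the GC box GGGCGG or the TATA motif TATAAA.
Col6a1 (chr10:76726045-76726294, minus strand): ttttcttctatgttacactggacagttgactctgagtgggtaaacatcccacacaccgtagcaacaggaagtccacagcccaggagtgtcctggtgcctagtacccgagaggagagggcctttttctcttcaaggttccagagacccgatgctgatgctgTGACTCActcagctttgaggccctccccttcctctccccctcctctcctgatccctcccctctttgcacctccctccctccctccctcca
Col6a2 (chr10:76623631-76623880, minus strand): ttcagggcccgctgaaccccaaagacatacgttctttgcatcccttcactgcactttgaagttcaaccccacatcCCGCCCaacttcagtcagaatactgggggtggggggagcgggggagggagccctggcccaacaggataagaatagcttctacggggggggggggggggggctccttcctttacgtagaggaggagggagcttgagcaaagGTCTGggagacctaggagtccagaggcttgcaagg
Col6a3 (chr1:90843972-90844221, minus strand): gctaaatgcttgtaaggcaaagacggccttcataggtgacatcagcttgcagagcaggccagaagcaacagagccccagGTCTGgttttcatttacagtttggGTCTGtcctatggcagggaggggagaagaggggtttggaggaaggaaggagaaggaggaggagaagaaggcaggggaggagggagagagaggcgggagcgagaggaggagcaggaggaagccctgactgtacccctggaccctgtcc

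None of the motifs was found in all 3 windows, and CAGAC was found in 2 of them. Col6a1 held 1 match to TGANTCA, 90 bases before the RefSeq start, and no other gene of the 7 held one, while 6.75% of all 32851 promoter windows did. The GENCODE M21 model of Col6a1 begins further upstream, at chr10:76726168, inside the window shown, so this match lies within the annotated gene. CAGAC was found in Col6a2, 35 bases before the start, and in Col6a3, 171 and 147 bases before it. It was found in 4 of the 7 genes and in 42.2% of all windows, and GGGCGG in 4 of the 7 genes and in 32.7% of windows. CCAAT and GGAATG were found in 2 of the 7 genes each, against 33.8% and 12.6% of windows, and TATAAA in 0 of the 7 against 12.4%. No motif contains another, and a GC box may overlap the next one. A match describes letters only and says nothing about a factor bound there.

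Col8a1 (ENSMUSG00000068196, chr16:57624258-57754737, minus strand) encodes a short chain that forms hexagonal networks, known from vessel walls and from the membrane behind the cornea. It had the lowest level per kb of exon of the 9 genes in every group. In week 3 its radiated samples had 15.1, 8.26, 15.0 and 4.37 CPM and its control samples 3.01, 2.70, 3.63 and 4.68 CPM. The groups overlapped: replicate 4 of radiated skin lay below replicate 4 of control skin, and the other pairs were higher. The difference was 3.12-fold, with a log2 fold change of 1.64 in edgeR (adjusted p 0.0149, SE 0.40), and its adjusted p reached at most 0.0454 in edgeR when any sample was left out. In week 4 radiated samples had 22.2, 20.7, 11.1 and 16.3 CPM and controls 6.26, 6.50, 6.07 and 5.66 CPM, without overlap. The difference in week 4 was 2.89-fold, with a log2 fold change of 1.53 in edgeR (adjusted p 2.46e-04, SE 0.21). In week 1 it was lower in radiated skin in 4 of 4 pairs, but the groups overlapped and the log2 fold change was -0.57 (adjusted p 0.443) in edgeR.

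Col18a1 (ENSMUSG00000001435, chr10:77052178-77166548, minus strand) encodes a heparan sulfate-bearing collagen of vessel and epidermal basement membranes. Its radiated and control samples did not overlap in weeks 1, 3 and 4, and the difference passed the test in weeks 3 and 4 only. In week 1 its radiated samples had 192, 278, 314 and 332 CPM and its control samples 186, 149, 171 and 179 CPM, so every radiated sample was above every control. The log2 fold change was 0.71 (adjusted p 0.190) in edgeR and did not pass. How many of all genes separated in this way in week 1 was not counted. In week 2 the groups overlapped, with 174 to 488 CPM in radiated and 146 to 284 CPM in control skin. In week 3 it stood at 490.2, 341, 749 and 382 CPM in radiated and 109, 219, 145 and 241 CPM in control samples, a 2.80-fold difference with a log2 fold change of 1.49 in edgeR (adjusted p 0.00889, SE 0.32). In week 4 it stood at 646, 546, 719.7 and 710.2 CPM and 157, 137, 84.8 and 112 CPM. The groups did not overlap in either week, and the week 4 difference was 5.38-fold, with a log2 fold change of 2.43 in edgeR (adjusted p 9.02e-06, SE 0.19).

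Col15a1 (ENSMUSG00000028339, chr4:47208161-47313167, plus strand), the relative of Col18a1 known from the zone beneath vascular and muscle basement membranes, rose in week 4 only among the 4 weekly tests. The annotated antisense gene Gm12426 shares 14 bases of its exons with Col15a1, 0.221% of the exon bases, and strand of counting is not given in the sources used here. In week 4 the samples had 302, 284, 309 and 352 CPM in radiated and 119, 89.4, 45.4 and 79.6 CPM in control skin, without overlap. The difference was 3.76-fold, with a log2 fold change of 1.91 in edgeR (adjusted p 1.68e-04, SE 0.24). In week 3 the groups overlapped, at 106 to 263 CPM against 56.9 to 166 CPM, and the log2 fold change was 0.72 (adjusted p 0.144) in edgeR. The ratio of Col15a1 to Col18a1 counts was lower in radiated skin in 4 of 4 pairs of weeks 3 and 4, without overlap. In week 3 it was 0.380, 0.312, 0.351 and 0.457 in radiated and 0.520, 0.579, 0.693 and 0.691 in control samples, and the log2 ratio differed by -0.73 in week 3 and by -0.47 in week 4. Both differences had the smallest p of the exact permutation test and the adjusted value of 0.0914. In week 1 the log2 difference was -1.03, lower in 4 of 4 pairs with overlapping groups, and -0.60 without radiated replicate 2, whose Col15a1 was the lowest of its group (exact permutation p = 0.0571, adjusted 0.131), and in week 2 it was -0.39 (exact permutation p = 0.171, adjusted 0.305).

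**Figure D3:**
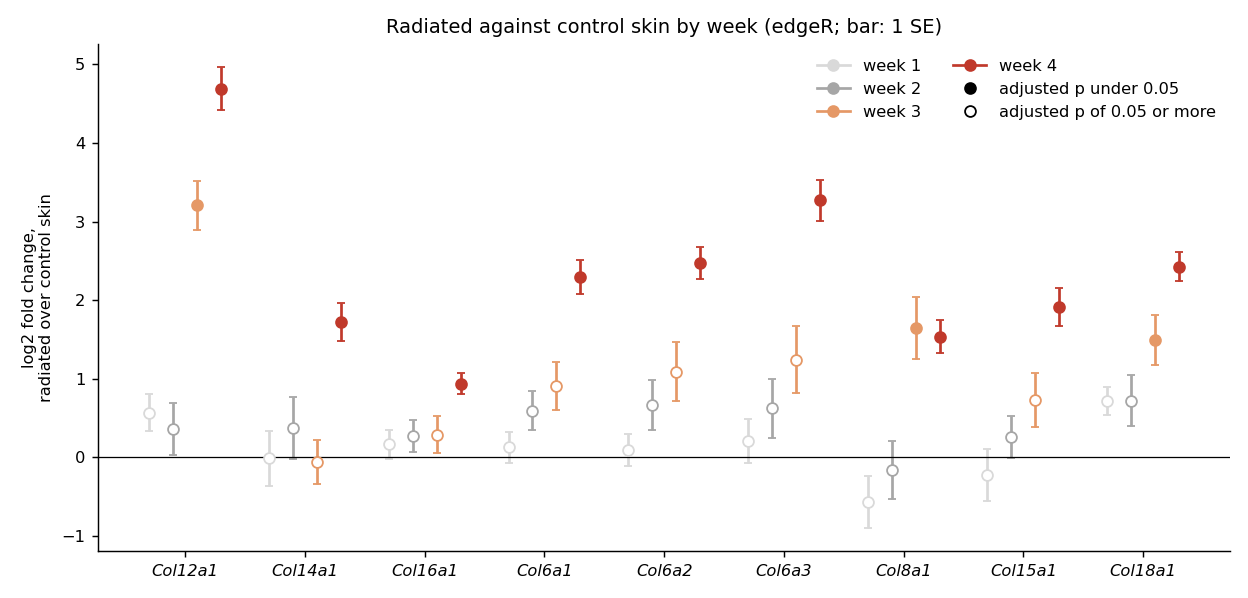
Log2 fold change of radiated over control skin (vertical axis) for each of the 9 genes in weeks 1 to 4, with bars of 1 SE; filled points have an adjusted p under 0.05 in edgeR and open points do not. All week 4 points are filled and lie between 0.94 for Col16a1 and 4.69 for Col12a1, and the filled week 3 points are those of Col12a1, Col8a1 and Col18a1.

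The difference between the 2 kinds of skin was tested for a change across weeks in a joint model of 32 samples, without sham skin. The test passed for 8 of the 9 genes, against 15.6% of 19338 genes. Col12a1 had the smallest adjusted p of the 9, at 1.30e-06 in edgeR, and Col16a1, at 0.150, was the exception. The calls of Col14a1 (adjusted p 0.0470 in edgeR), Col8a1, Col15a1 and Col18a1 were each lost when a replicate number was left out (any number for Col14a1, number 1 for Col8a1, 3 or 4 for Col15a1 and 3 for Col18a1), with adjusted p up to 0.217, 0.0584, 0.121 and 0.0862.

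From week to week, the steps differed between the genes. From week 1 to week 2 edgeR called none of the 9 and 0% of all genes, with 0 of the 9 and 1296 genes at an unadjusted p under 0.05, and DESeq2 called 0 of the 9 and 0.0414% of its genes. From week 2 to week 3 the difference grew for Col12a1, by 2.85 (adjusted p 0.00106 in edgeR, SE 0.46), and for Col8a1, by 1.80 (adjusted p 0.0314 in edgeR, SE 0.51), against 6.9% of all genes. The step of Col8a1 did not pass without replicate 1, 2 or 3, with an adjusted p up to 0.205 in edgeR. From week 3 to week 4 none of the 9 passed, against 0.419% of all genes, although 8 of the 9 had an unadjusted p under 0.05, as had 2684 genes. DESeq2 called 4 of the 9 in this step, beside 2.42% of its genes. With the replicate number as a block, 3 passed in edgeR, beside 0.905% of genes, with steps of 1.40 (adjusted p 0.0280) for Col6a1, 1.48 (adjusted p 0.0448) for Col6a2 and 2.05 (adjusted p 0.0459) for Col6a3. The remaining gene of the 9 with no unadjusted p under 0.05 in this step was Col8a1, at -0.08 (adjusted p 0.970 in edgeR, SE 0.50).

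Radiated skin was also compared with sham skin, a comparison that shares its radiated samples with those above and its 3 sham samples across weeks. The median log2 fold change of the 9 genes over sham was 0.45, 0.41, 1.24 and 2.05 in weeks 1 to 4, and that of all genes was 0.01, -0.01, 0.03 and -0.03. In weeks 1 and 2 none of the 9 passed in edgeR, where 0.543% of genes were called higher and 1.21% lower in the first of these weeks, and 2.16% and 2.9% in the second. In both weeks 2 of the 9 had an unadjusted p under 0.05, as had 3021 genes in week 1 and 4261 in week 2. DESeq2 called 0 of the 9 in either week, beside 6.93% and 14.1% of its genes. In week 3, 5 of the 9 were higher (Col12a1, Col6a1, Col6a2, Col6a3 and Col18a1), against 10.4% of genes, and 0 were lower, against 7.75%. This count fell to 0 without sham replicate 1 or sham replicate 3 and to 1, 2, 2 and 3 without sham replicate 2 and without radiated replicates 1, 2 and 3. The shares of genes called higher in these fits were 6.26%, 4.37% and 5.04% without the sham replicates in turn, and 7.63%, 7.75% and 9.04% without the radiated ones. In week 4, 8 of the 9 were higher, against 15.2%, and 0 lower, against 11.5%. The log2 fold changes over sham in week 4 were 3.84 (adjusted p 0.00112) for Col12a1, 2.36 (adjusted p 0.00106) for Col6a3, 1.56 (adjusted p 0.0102) for Col14a1 and 1.66 (adjusted p 8.92e-04) for Col18a1 in edgeR. Col16a1 was the gene that did not pass, with 365, 295, 242 and 258 CPM in radiated and 199, 276 and 171 CPM in sham samples and a log2 fold change of 0.47 in edgeR (adjusted p 0.131, SE 0.21); it passed only without sham replicate 2.

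Cell type markers differed between radiated and sham skin too. Read against them, all genes had 1.21% and 2.9% lower in weeks 1 and 2, 10.4% higher and 7.75% lower in week 3, and 15.2% and 11.5% in week 4. Of the 6 markers of growing hair follicles, all were called lower in weeks 1 and 2, 2 in week 3 and 0 in week 4, with median log2 fold changes of -8.67, -10.32, -6.07 and -3.56. All 5 macrophage and all 5 neutrophil markers were called higher in weeks 3 and 4. Macrophage markers summed to 114 to 267 CPM in sham skin, 624 to 1762 CPM in radiated skin of week 3 and 753 to 1102 CPM in week 4. Endothelial markers were called higher in 4 of 8 in week 3 and 8 of 8 in week 4, and their sum was 127 to 202 CPM in sham, 269.7 to 569.9 CPM in week 3 and 482 to 631 CPM in week 4. Of 8 fibroblast markers 3 were higher in week 3, and 5 higher and 1 lower in week 4. Of 8 skeletal muscle markers 2 were lower in week 3 and 7 in week 4, with a sum of 7140.1 to 15999 CPM in sham skin and 1214 to 2827 CPM in week 4. Their part in the differences from sham was not tested.

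Control skin was compared with the same 3 sham samples. The median log2 fold change of the 9 genes was 0.49, -0.03, -0.07 and -0.51 in weeks 1 to 4, and that of all genes lay between -0.05 and -0.03. The tests of weeks 1, 2 and 4 called none of the 9, where the shares of all genes called higher were 3.28%, 1.37% and 1.76%, and the shares called lower 1.65%, 1.06% and 1.9%. At an unadjusted p under 0.05 there were 4, 1 and 4 of the 9 in these weeks, and 4880, 3765 and 3947 genes. DESeq2 called 2, 0 and 2, beside 17.7%, 12.2% and 10.8% of its genes. In week 3, 0 were higher, against 5.18%, and Col12a1 was lower, against 6.19% of genes lower, with 52.0, 55.6, 46.7 and 77.0 CPM against 77.0, 255 and 126 CPM in sham skin. Its log2 fold change of -1.41 in edgeR (adjusted p 0.0382, SE 0.35) lost its call without sham replicate 2 or 3 or without control replicate 1, 2 or 3, with an adjusted p of 0.0965 in edgeR without sham replicate 2, the sample with the highest Col12a1 of the 3. Other tissue differed too: skeletal muscle markers summed to 17863 to 35545 CPM in control skin of week 3 and 7140 to 15999 CPM in sham skin. Markers of growing hair follicles summed to 20.8 to 1882 CPM and 2092 to 33093 CPM. Their part in the difference of Col12a1 was not tested.

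The order of the 9 genes by level was compared per length of exon, as CPM per kb. In sham skin Col6a1 was highest, at 44.3 ± 15.1 CPM per kb (SD, n = 3), followed by Col16a1 at 31.9 ± 8.03 and Col18a1 at 30.4 ± 7.85. Col12a1 was eighth, at 10.0 ± 6.03, and Col8a1 last, at 0.541 ± 0.233. Neighbours in this order overlapped in their ranges, except Col12a1 and Col8a1. In radiated skin of week 4 Col6a1 was again highest, at 191 ± 52.1 CPM per kb (SD, n = 4), and Col12a1 was second, at 140.0 ± 55.0, where the ranges of both overlapped. Col18a1, Col6a3 and Col6a2 followed at 93.4 ± 11.4, 93.0 ± 19.7 and 88.5 ± 17.0 CPM per kb, with overlapping ranges, and Col6a2 lay clear of Col15a1 at 49.1 ± 4.50. Col8a1 remained last at 2.24 ± 0.640. With the length of the longest transcript in place of all merged exons, Col6a1 was also highest, Col8a1 lowest and Col12a1 second in that group, and Col12a1 was seventh in sham skin.

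**Figure D4:**
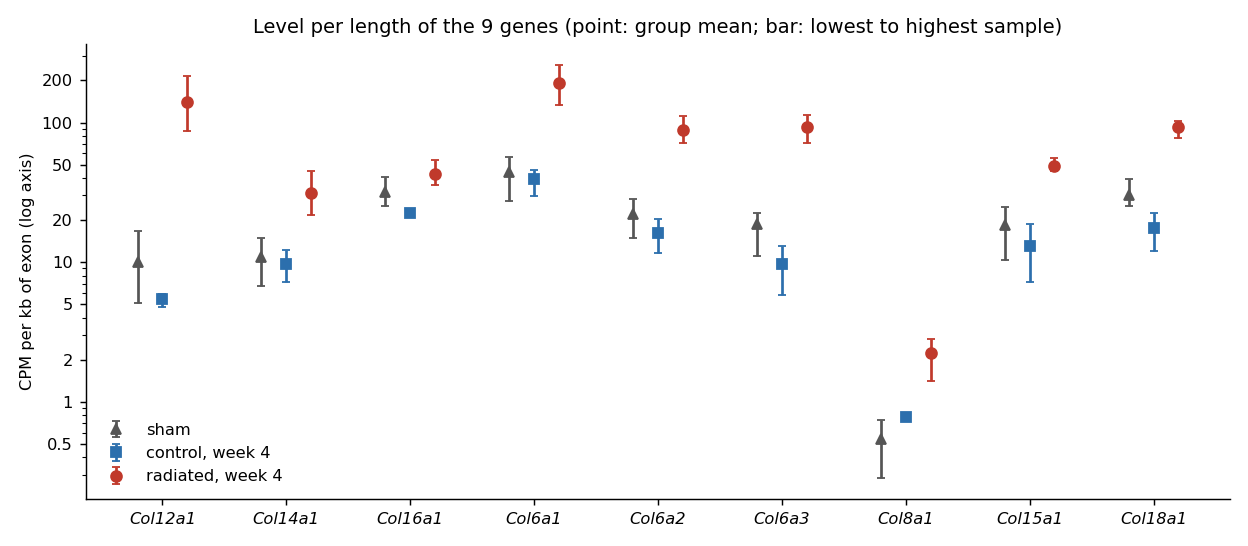
CPM per kb of exon (vertical log axis) of the 9 genes in sham skin, control skin of week 4 and radiated skin of week 4; points are group means and bars run from the lowest to the highest sample. Col12a1 moves from eighth place in sham and control skin to second in radiated skin, and Col8a1 is last in all 3 groups.

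The genes most like each of the 9 over the 9 groups were found from the root mean square difference of centred group means of log2 CPM, among the 12533 genes whose mean reached 5 CPM. For Col12a1 they were Ccn4, a matricellular protein gene, Hhipl1 and Adam12, a membrane metalloprotease gene, at 0.331, 0.430 and 0.441, against a median of 1.61 over all genes. Ccn4 had 49.9 ± 16.8 CPM in radiated and 3.07 ± 0.791 CPM in control skin of week 4 (SD, n = 4 each). For Col6a1 they were Col6a2, Tmem176b and Mrc2, for Col6a2 Loxl2 (at 0.0965), a collagen crosslinking enzyme gene, Col6a1 and Adamts2, a procollagen processing enzyme gene. For Col6a3 the nearest were the fibrillar collagen V genes Col5a3 and Col5a2, at 0.151 and 0.167, and Zfp469, and neither Col6a1 nor Col6a2 was among these 3. The nearest genes were Adamts12, Ssc5d and Thbs3 for Col14a1, Tenm3, Copz2 and Ptk7 for Col16a1, and Ppic, Adamts12 and Fkbp14 for Col15a1. For Col8a1 they were Gimap4, Steap4 and Kcne4, and for Col18a1 Tmprss11g, Ctsl and Rab31. These are descriptions of 9 group means that share libraries, and closeness was not tested.

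The other matrix genes were followed in lists, in the comparison of radiated with control skin. Of the fibrillar collagens, on whose fibrils collagens XII and XIV sit, 2 of 10 tested were higher in week 3, against 13.6% of all genes, and all 10 in week 4, against 24.2%, with a median log2 fold change of 3.19 in week 4. Col1a1 had 14734 ± 2712 CPM in radiated and 863 ± 353 CPM in control skin of week 4 (SD, n = 4 each). Its log2 fold change was 4.10 (adjusted p 9.54e-06) in edgeR, beside 4.69 for Col12a1. In week 3 Col1a1 did not pass, at 0.99 (adjusted p 0.267), and the fibrillar genes that passed were Col5a2, at 1.58 (adjusted p 0.0115), and Col24a1, at 2.05 (adjusted p 0.00520).

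Other chains of the same collagen classes had 2 of 9 tested higher and 1 lower in week 4, against 24.2% and 24.2% of all genes, so the list was near or under the share of all genes in both directions. It had a median log2 fold change of -0.19. The additional collagen VI chain genes Col6a4 and Col6a5 rose, by 4.19 (adjusted p 1.51e-05) and 2.32 (adjusted p 5.24e-04) in edgeR, from low levels of 0.148 ± 0.0575 and 1.74 ± 0.860 CPM in control skin. Col6a6 had -0.79 (adjusted p 0.174) and did not pass. Col8a2, the partner chain of Col8a1 in collagen VIII, fell in both weeks while Col8a1 rose, with log2 fold changes of -2.07 (adjusted p 0.0333) in week 3 and -2.18 (adjusted p 6.51e-04) in week 4 in edgeR. The week 4 level of Col8a2 was 7.18 ± 3.90 CPM after radiation and 32.9 ± 3.75 CPM in the controls (SD, n = 4 each).

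Among 14 proteoglycans and glycoproteins of the fibril surface, week 3 had 3 higher and 3 lower, and week 4 had 7 higher and 3 lower, with a median log2 fold change of 0.53 in week 4. All genes had 13.6% higher and 13.6% lower in week 3 and 24.2% and 24.2% a week later. Biglycan (Bgn), a binding partner of collagen VI, rose by 3.60 (adjusted p 6.43e-06) and thrombospondin 1 (Thbs1) by 2.80 (adjusted p 6.88e-06) in week 4 in edgeR. Decorin (Dcn), which binds collagens I, VI, XII and XIV, rose by 0.58 (adjusted p 0.00967) in edgeR. Tenascin X (Tnxb), fibromodulin (Fmod) and osteoglycin (Ogn) were lower, at -0.62 (adjusted p 0.0208), -1.25 (adjusted p 0.00705) and -1.94 (adjusted p 0.00299) in edgeR.

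The 13 collagen receptors and binding partners of collagen VI had 4 higher and 1 lower members in week 3, and 8 and 1 in week 4 (median 1.05). The collagen VI receptor genes Antxr1 and Antxr2 rose by 1.30 (adjusted p 2.80e-04) and 1.07 (adjusted p 7.00e-05) in edgeR, and the collagen uptake receptor gene Mrc2 by 2.20 (adjusted p 7.97e-06). Cspg4, whose product NG2 binds collagen VI, did not pass, at -0.06 (adjusted p 0.736), and the epithelial receptor gene Ddr1 fell, at -1.43 (adjusted p 8.95e-04). Of 16 basement membrane zone genes, 6 rose and 4 fell in week 3, followed by 10 and 4 in week 4 (median 1.16). Those that rose included the collagen IV genes Col4a1, at 2.45 (adjusted p 9.07e-06), and Col4a2, at 2.56 (adjusted p 4.88e-06), and the perlecan gene Hspg2, at 2.02 (adjusted p 2.09e-05) in edgeR, beside 2.43 for Col18a1. The hemidesmosome collagen gene Col17a1, made by keratinocytes, fell, at -1.51 (adjusted p 2.88e-04) in edgeR, as did Col4a5 and Col4a6. For both lists the shares of all genes were 13.6% higher and 13.6% lower in week 3 and 24.2% and 24.2% in week 4. Against control skin of weeks 1 and 2, where edgeR called 0% and 0.00577% of all genes, no gene of the 5 lists was called.

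**Figure D5:**
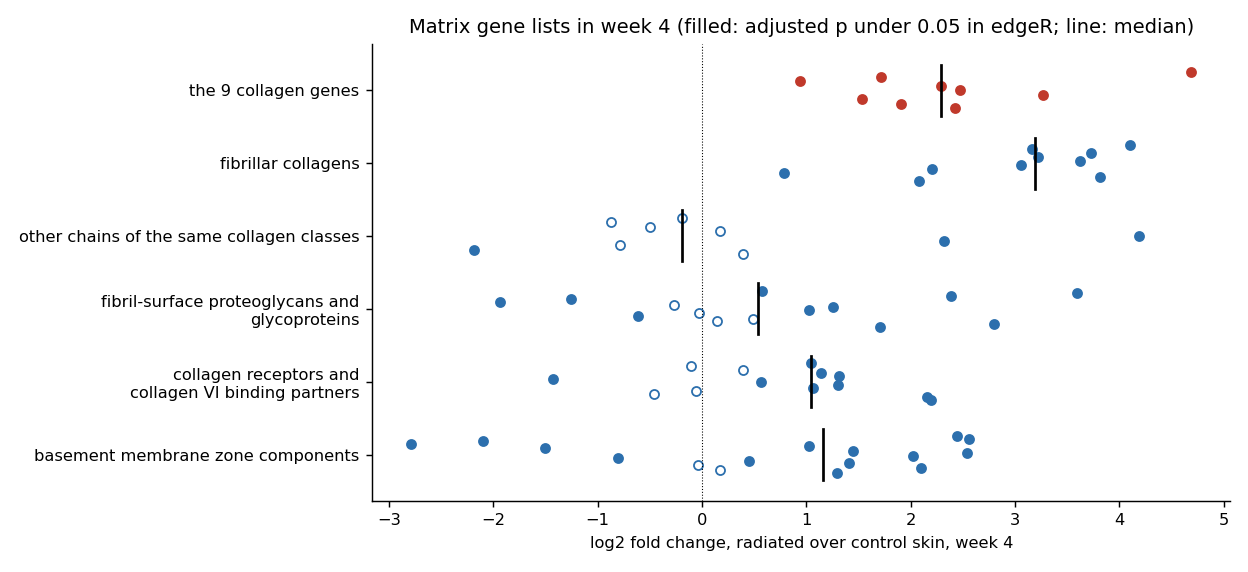
Log2 fold change of radiated over control skin in week 4 (horizontal axis) for the 9 collagen genes and for the genes of 5 matrix lists; filled points have an adjusted p under 0.05 in edgeR, open points do not, and black lines are medians. All points of the 9 genes and of the fibrillar collagens are filled and above 0, and the other lists have points on both sides of 0.

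Markers of several cell types also differed between radiated and control skin, where 24.2% of all genes were called higher and 24.2% lower in week 4, and 13.6% and 13.6% in week 3. The summed level of 8 fibroblast markers ran from 1144 to 1536 CPM in radiated and 639.7 to 749.8 CPM in control samples of week 4, and from 683 to 1393 and 575 to 842 CPM in week 3. In week 4, 6 of the 8 were called higher and 2 lower, with a median log2 fold change of 0.93, beside 0.94 for Col16a1 and 1.53 to 4.69 for the other 8 genes. Endothelial markers ran from 482 to 631 CPM against 234 to 359 CPM, with 7 of 8 called higher (median 1.08), and mural cell markers from 432 to 511 CPM against 603 to 746 CPM, with 1 of 6 higher and 4 lower.

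Macrophage markers ran from 753 to 1102 CPM in radiated and 133 to 205 CPM in control skin of week 4, with all 5 called higher, and neutrophil markers from 205 to 435 CPM against 10.2 to 14.4 CPM, also with all 5 higher. Skeletal muscle markers ran from 1214 to 2827 CPM against 1465 to 22425 CPM in week 4, with 6 of 8 lower, and from 2977 to 8999 CPM against 17863 to 35545 CPM in week 3, with 7 of 8 lower. Keratinocyte markers ran from 10867 to 15634 CPM against 20607 to 22976 CPM, with 1 of 5 higher and 3 lower. In adipocyte markers the calls were under the share of all genes: they ran from 259 to 321 CPM against 192 to 617 CPM, with 1 of 6 lower. Schwann cell markers ran from 117 to 148 CPM against 206 to 259.9 CPM, with 3 of 5 lower. Hair follicle markers summed to 254, 18.8, 5770.3 and 66.7 CPM in radiated replicates 1 to 4, against 20.7 to 32.3 CPM. The sums overlapped, and all 5 tested were called higher. No marker of these lists was at 0 in all samples of a group. In week 3, 4 fibroblast markers were called higher and 2 lower, and endothelial markers ran from 269.7 to 569.9 CPM against 231 to 286 CPM, with 3 of 8 higher. Macrophage markers of week 3 ran from 624 to 1762 CPM against 238 to 592 CPM, with 4 of 5 higher, and neutrophil markers from 100.3 to 739 CPM against 9.12 to 14.2 CPM, with all 5 higher. Mural cell markers ran from 257 to 373 CPM against 549.7 to 660.0 CPM, with 3 of 6 lower, and Schwann cell markers from 124 to 194 CPM against 232 to 332 CPM, with 2 of 5 lower. Keratinocyte markers had 1 of 5 higher and 1 lower, adipocyte markers 1 of 6 lower and hair follicle markers 0 of 5 tested in either direction, with overlapping sums in these 3 lists. The part of these shifts in the changes of the 9 genes was not tested.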

How the data were processed

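The authors deposited estimated counts per gene from Kallisto, per the labels' protocols, which also name an RNeasy kit and DESeq2; the submitters' processing notes list Trim Galore 0.6.7, kallisto 0.46.2 and the build mm10. Between 29.5% and 32.5% of a sample's values were not whole, and they were rounded here. Differences were tested with the quasi-likelihood test of edgeR 4.0.16 (R 4.3.3), with TMM scaling, filterByExpr, 1 fit per comparison and Benjamini-Hochberg adjustment over all genes tested; ratios were tested with exact permutation tests (SciPy 1.17.1, 2-sided). SE is the log2 fold change divided by the root of F. Scripts were tested on simulated data. Alternatives were DESeq2 1.42.0, other scalings, no filter, a replicate block, 1 fit of all groups and leaving out each sample.

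The named genes are the 9 members, genes of the lists, and the 3 nearest genes per member. Members and lists were chosen with earlier results of these data known. Same-numbered radiated and control samples were taken as 1 mouse, from the numbers of mice and samples. Their deviations from group means correlated by 0.07, 0.17, 0.05 and -0.02 on average in weeks 1 to 4 over 19813 genes. In a chi-square comparison of the 51 within-group library pairs, the lowest statistic per gene was 21.2, so none agreed within sampling noise. The replicates of a group are separate mice by this count; sequencing batches are not given in the sources used here. Gene models came from GENCODE M21. Sampling statements cover counting error only, since the reads carry no stated molecular identifiers.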

Additional observations from a re-analysis of the deposited data

Results flagged for a closer look

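For 2 genes the difference between radiated and control skin in week 3 differed from that in week 2 by a test of the change itself. The radiated minus control difference of Col12a1 grew by 2.85 (adjusted p 0.00106 in edgeR, SE 0.46), and that of Col8a1 by 1.80 (adjusted p 0.0314 in edgeR, SE 0.51). Col12a1 was higher in radiated skin in 4 of 4 pairs of week 3 and 2 of 4 of week 2, and Col8a1 in 3 of 4 and 2 of 4.

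Single samples stood apart from the 3 others of their group by Dixon's test in 7 of 104 groups of 4 samples scanned, 72 of gene levels and 32 of ratios, where chance alone flags about 1 in 20. None was in week 3 or 4. Radiated week 1 replicate 2 was low in 3 of them: Col16a1 had 142 CPM against 245 CPM in the nearest sample, Col15a1 had 60.7 CPM against 192 CPM, and the log2 ratio of Col6a3 to Col6a1 was -0.44 against 0.10. In radiated week 1 replicate 1 the log2 ratio of Col12a1 to Col14a1 was -2.06 against -0.18. Radiated week 2 replicate 2 had 224 CPM of Col6a1 against 357 CPM, control week 1 replicate 2 had 212 CPM of Col6a2 against 288 CPM, and control week 2 replicate 4 had 9.23 CPM of Col8a1 against 3.93 CPM.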

How the results depend on the processing

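Among the 9 genes, no called difference turned its direction under any alternative run; of 368 such values, 39 lost the call. The week 4 counts against control held throughout. Against control, DESeq2 called 1 gene in week 1, and the replicate block called 1 in week 2. In week 3 the 3 calls became 7 with total-count scaling, 6 with DESeq2, 5 with the replicate block and 6 in 1 fit of all groups, and 3 to 5 on leaving out a sample, which gave 0 to 1 in week 1. Against sham in week 3 the 5 calls became 3 with RLE scaling (beside 10.1% of all genes higher), 1 with the replicate block (beside 9.07%) and 0 to 4 on leaving out a sample. For control against sham, DESeq2 called 2 in weeks 1 and 4, week 3 gave 2 with total-count scaling and 0 with the block (beside 10.9% and 1.47% of all genes lower), and leaving out a sample gave 0 to 1, 0 to 2 and 0 to 1 in weeks 1, 3 and 4. The added calls came without sham replicate 1 in weeks 1 and 4 (beside 9.84% and 9.26% of all genes) and without control replicate 4 in week 3 (beside 4.11% lower). The 8 calls over all weeks became 5 to 7, and the 2 from week 2 to week 3 became 1 to 2, when a replicate number was left out, with the lowest count over all weeks without number 3; from week 3 to week 4 DESeq2 called 4 and the block 3.

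Signs that turned belonged to genes not called. Against control, Col14a1 came to 0.0887 in week 1 and 0.18 in week 3 with total-count scaling, and 0.0106 in week 3 with the block. Leaving out a sample gave -0.42 to 0.19 for Col14a1, -0.00946 to 0.29 for Col6a1, -0.051 to 0.25 for Col6a2 and -0.38 to 0.0421 for Col15a1 in week 1, -0.33 to 0.31 for Col8a1 in week 2 and -0.25 to 0.20 for Col14a1 in week 3. From week 2 to week 3, Col16a1 came to -0.0037 with RLE scaling, -0.0037 with DESeq2 and -0.0053 without the filter, and leaving out a number gave -0.12 to 0.20 for it and -0.89 to 0.14 for Col14a1; from week 3 to week 4 it gave -0.49 to 0.27 for Col8a1. The cause was not tested. No ratio was called in the main test. With the replicate block none could be called, since 4 pairs cannot go below 0.125 in the exact paired permutation test (smallest adjusted p 0.286). A pseudocount of 1 changed no call of a ratio. The block changed no call other than those given here or in the report. In the radiated and control comparisons it stands for the mouse; against sham the samples share a number only. The lowest count of any of the 9 genes in a sample was 43, for Col8a1, the gene with the most counting error; the effect of depth was not tested.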
